A study of Rattus norvegicus with 10 samples.

Results

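The genes described are the solute carrier (Slc) transporters that a spotted oligonucleotide array of rat genes carried. Members were all rows whose name was a RefSeq accession of a gene with a symbol starting with Slc, without Slc1a3 and Slc4a2. They numbered 42, each on 1 accession, out of 4803 accessions, of which 1177 could be paired with a RefSeq symbol. A member was said to carry signal when the probability that a channel held signal was at least 0.5 in at least 15 of the 20 channels, which 27 members did and 15 did not. The samples came from female Wistar rats of 12 weeks. In the LOAD group (n = 5) the right tibia was bent in a four-point system for 300 cycles at 2 Hz, with the peak set at 60 N, and in the SHAM group (n = 5) the right tibia was squeezed by opposed pads without bending. In both groups the left tibia of the same rat was the contralateral control, and the shaft was taken 6 hours after the session, freed of its ends, the periosteum and the marrow. Each array held the treated and the control tibia of 1 rat in different dyes, so each of the 10 arrays gave 1 ratio per gene. All rats had been under isoflurane anesthesia during the session, controls included. The shaft is a mixture of osteocytes, osteoblasts, lining cells and cells of blood vessels in the cortex. A lower ratio in such RNA does not separate fewer cells of a type from less RNA per cell.

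Solute carriers are membrane proteins that move small molecules and ions across the plasma membrane or the membranes of organelles, by facilitated diffusion or coupled to gradients of sodium, protons or other ions. In bone they bring in glucose and amino acids for matrix synthesis, vitamin C for collagen hydroxylation and phosphate for mineral, and they export lactate and control the pH of cells that secrete or resorb matrix. Red blood cells and their precursors, kidney, liver, gut and brain each have characteristic members of the same families, and the array carried many of these.

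In the tibial shaft all 5 bone markers on the array carried signal (Spp1, Ibsp, Sparc, Phex and Pdpn), as did Acp5 of osteoclasts, the erythroid transcripts Alas2 and Slc4a1, and the leukocyte transcripts Cd53 and Lyz2. The erythroid transcript Epor was on in 4 of 20 channels and did not carry signal. Of 9 muscle transcripts on the array 7 carried signal. The liver transcript Apoa1 was on in 0 of 20 channels, whereas Umod, a kidney transcript, was on in 18 and Syp, a neuronal one, in 20. Syn1, also neuronal, was on in 12 and did not carry signal. Between 18 and 39 members were on in a given channel, beside 54.3% to 85.5% of all accessions. The lowest counts, 18 and 19, belonged to the control and the treated tibia of LOAD 4, where 56% and 54.3% of all accessions were on. A few facts of single arrays touch the results below. The methods of the study state that an oligonucleotide on these slides can also bind transcripts of other genes. The labels of SHAM 1 disagree, with LOAD in a characteristics field and SHAM in the title and the description, and the latter were followed. The headers of LOAD 4 and SHAM 4 give tibia numbers 3 with 26 and 25 with 4, while the other 8 arrays pair consecutive numbers, so that both tibiae coming from 1 rat is not borne out for these 2 arrays. The red over green ratios of LOAD 2 correlated with those of the other 9 arrays between -0.35 and 0.16 across genes, and below -0.3 with 2 of them, while pairs of the other 9 arrays lay between -0.25 and 0.66. Values without these arrays, or with the dyes of LOAD 2 exchanged, are given where they change a result.

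The question for signal was which carriers were detected in the bone shaft at all. The 27 members with signal were 64.3% of the 42, beside 65.1% of all accessions and 62.1% of the accessions with a symbol. The choice of members with signal rests on the same probabilities, so these shares are a description.

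All 5 amino acid carriers carried signal. Slc7a5, the light chain of a transporter of large neutral amino acids, and Slc3a2, the heavy chain with which it forms a heterodimer, were each on in 17 channels. Slc1a2, a glutamate transporter best known from glia, was on in 20, Slc7a3, a cationic amino acid transporter, in 16, and Slc3a1, the heavy chain of the kidney cystine transporter, in 15, exactly at the limit. Of the 9 exchangers of acid, sodium, chloride and calcium 6 carried signal. Slc4a3, a chloride-bicarbonate exchanger, Slc12a4, a potassium-chloride cotransporter that regulates cell volume, Slc4a1, the anion exchanger of red blood cells, and Slc24a1, a sodium-calcium-potassium exchanger known from photoreceptors, were on in 20 channels each. Slc26a4, the anion exchanger of thyroid and inner ear, was on in 16. The epithelial sodium-proton exchangers Slc9a2 and Slc9a3 were on in 7 and 11 channels, and Slc12a3, the sodium-chloride cotransporter of the kidney tubule, in 13.

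Among sugar carriers the glucose transporters Slc2a2 and Slc5a1 were on in 20 channels and Slc2a3 in 18, whereas Slc2a4, the insulin-regulated glucose transporter of muscle and fat, was on in 9. Both vitamin C transporters carried signal, Slc23a1 in 20 and Slc23a2 in 17 channels, and so did the folate carrier Slc19a1 in 20. The urea transporters Slc14a1 and Slc14a2 were on in 8 and 3. Of the phosphate carriers Slc20a2, which is expressed in most tissues, was on in 18 and Slc34a1, the sodium-phosphate cotransporter of the kidney tubule, in 6. Slc16a1, which carries lactate and other monocarboxylates, and Slc25a1, the citrate carrier of the mitochondrial inner membrane, were on in 20 channels. Slc11a2, which imports iron and other divalent metals, was on in 16 and the zinc transporter Slc30a2 in 6.

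In the Slc6 family, which holds the carriers of neurotransmitters, the taurine transporter Slc6a6 and the serotonin transporter Slc6a4 were on in 20 channels and the creatine transporter Slc6a8 in 18. The dopamine transporter Slc6a3 was on in 0, Slc6a12, a betaine and GABA transporter, in 1, and Slc6a18, a neutral amino acid transporter of the kidney, in 14. Organic ion and bile acid carriers were divided as well, with 3 of 7 carrying signal. The carnitine transporter Slc22a5 was on in 20, the hepatic bile acid transporter Slc10a1 in 19 and the renal organic anion transporter Slc22a6 in 16. Slco1a1 was on in 2, and Slc22a3 and the intestinal bile acid transporter Slc10a2 in 0 channels. Just inside the limit lay Slc3a1 at 15 and Slc26a4, Slc7a3, Slc11a2 and Slc22a6 at 16, and just outside it Slc6a18 at 14 and Slc12a3 at 13.

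**Figure D1:**
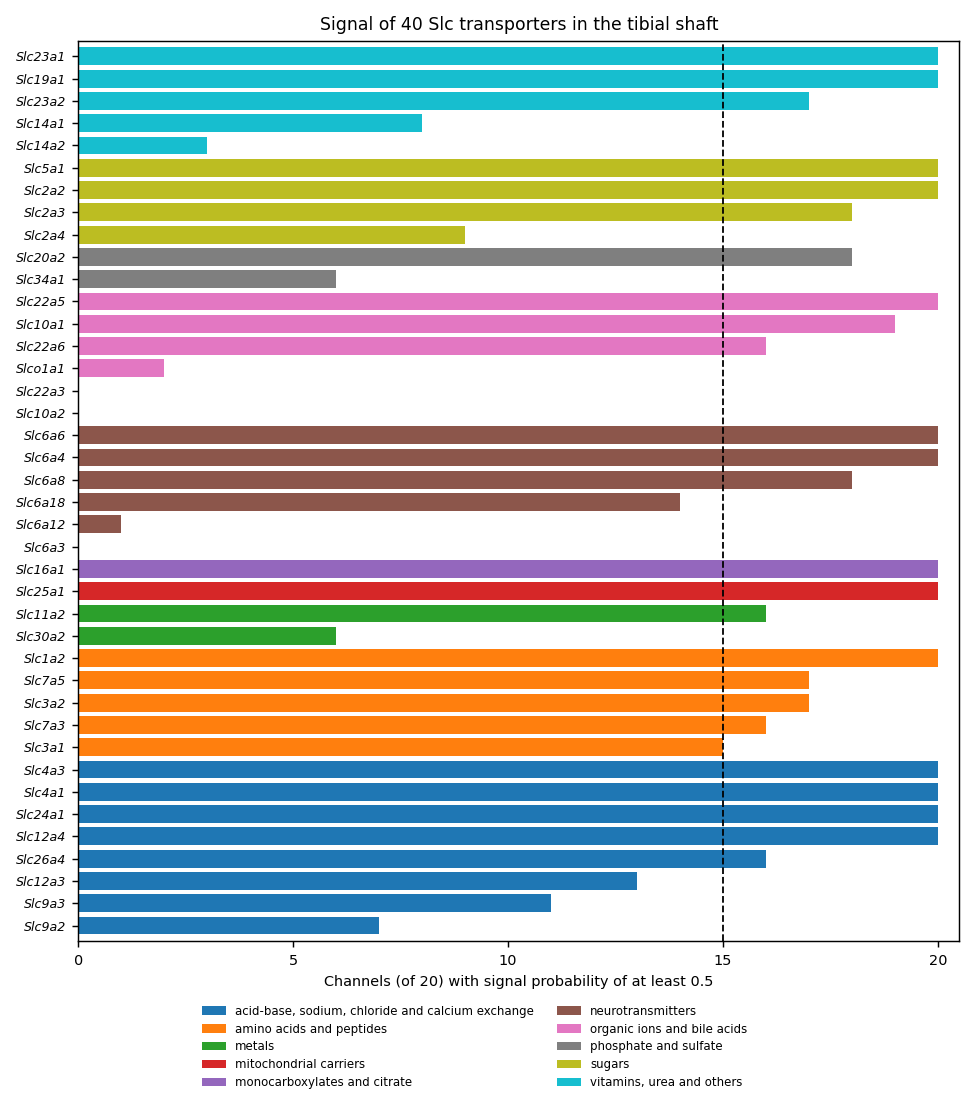
Bars give, for 40 of the 42 Slc transporters, the number of the 20 channels (10 treated and 10 control tibiae) in which the signal probability was at least 0.5. The dashed line marks the limit of 15 channels. Colours mark the class of transported substance, and Slc22a3, Slc10a2 and Slc6a3 have no bar because they were on in 0 channels.

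The number of members with signal was 15 when 20 of 20 channels were required, beside 49.6% of all accessions, and also 15 at a probability of 0.9. By groups of tibiae, 28 to 35 members were on in the controls of SHAM and 29 to 34 in the treated tibiae of SHAM. In LOAD the range was wider, 18 to 39 in the controls and 19 to 37 in the treated tibiae. The share of all accessions that were on varied in the same way. It was 56% to 85.5% in the controls and 54.3% to 82.9% in the treated tibiae of LOAD. In SHAM it was 70.2% to 79.2% and 73.4% to 77.6%.

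The stretch of 250 bases before the transcription start, taken from RefSeq (build GRCr8), was listed for 33 of the 42 members. In members with signal (n = 20) this stretch held a median of 18.5 CpG dinucleotides (the letters CG, which read the same on both strands) and in members without signal (n = 13) a median of 4, taking the promoter with more CpG where a gene had several. At least 10 CpG were found in 75% of the former, in 30.8% of the latter and in 35.9% of all 33469 promoters of this length in the table. Among the other named genes of the array the same share was 64.8% with signal (n = 568) and 43.6% without (n = 319). The share over the 33469 took every listed promoter and not 1 per gene, so it is not a like measure for the members. These are counts of letters and carry no test. Shown are 2 promoters with many CpG of transporters on in 20 channels, 1 with few CpG of a transporter on in 20, and 2 of transporters on in 0 channels. Those of Slc2a2 and Slc6a3 go against the general pattern. CpG are in capitals.
Slc16a1 promoter (chr2:194812410-194812659, plus strand): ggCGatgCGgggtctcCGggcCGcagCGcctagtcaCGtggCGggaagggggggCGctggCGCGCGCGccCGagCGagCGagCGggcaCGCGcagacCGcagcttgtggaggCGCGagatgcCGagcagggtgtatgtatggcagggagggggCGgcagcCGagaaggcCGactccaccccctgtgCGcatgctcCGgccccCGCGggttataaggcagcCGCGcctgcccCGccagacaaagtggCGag
Slc12a4 promoter (chr19:50770123-50770372, minus strand): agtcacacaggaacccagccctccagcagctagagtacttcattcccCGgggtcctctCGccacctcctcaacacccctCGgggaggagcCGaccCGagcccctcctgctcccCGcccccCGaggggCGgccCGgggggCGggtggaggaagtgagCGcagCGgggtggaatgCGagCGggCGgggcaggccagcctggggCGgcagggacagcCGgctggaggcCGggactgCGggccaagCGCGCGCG
Slc2a2 promoter (chr2:113540120-113540369, plus strand): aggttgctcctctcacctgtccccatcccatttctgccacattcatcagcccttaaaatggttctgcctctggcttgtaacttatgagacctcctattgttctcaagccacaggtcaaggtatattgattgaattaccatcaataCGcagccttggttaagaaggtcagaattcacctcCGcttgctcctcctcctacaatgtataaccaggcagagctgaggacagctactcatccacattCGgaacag
Slc10a2 promoter (chr16:91087839-91088088, plus strand): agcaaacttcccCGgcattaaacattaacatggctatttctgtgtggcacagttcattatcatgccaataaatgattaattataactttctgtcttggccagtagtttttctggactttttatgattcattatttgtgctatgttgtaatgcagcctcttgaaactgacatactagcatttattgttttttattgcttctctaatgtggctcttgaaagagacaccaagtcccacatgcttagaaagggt
Slc6a3 promoter (chr1:31578963-31579212, minus strand): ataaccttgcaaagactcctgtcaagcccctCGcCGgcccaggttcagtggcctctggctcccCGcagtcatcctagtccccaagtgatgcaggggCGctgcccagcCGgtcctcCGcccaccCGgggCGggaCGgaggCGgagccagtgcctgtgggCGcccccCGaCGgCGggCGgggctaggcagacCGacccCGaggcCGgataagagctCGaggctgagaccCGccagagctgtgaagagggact
The promoter of Slc16a1 held 33 CpG and that of Slc12a4 23. The promoter of Slc2a2 held 3 and that of Slc10a2 1, although Slc2a2 was on in every channel and Slc10a2 in none. The promoter of Slc6a3, on in 0 channels, held 20. Other members with few CpG but signal were Slc24a1 with 1, Slc3a1 with 2, Slc10a1 with 3 and Slc23a1 with 8. Slc9a2, without signal, held 35, as many as Slc23a2, which carried signal.

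Levels on the array depend on each oligonucleotide and were compared only between tibiae of the same gene. Normalized log2 intensities of Slc12a4 ran from 11.37 to 11.92 over the 20 tibiae, and those of Slc23a1 from 7.94 to 8.75. By contrast Slc4a1 ran from 8.52 to 12.18. In Slc25a1 the median was 9.95 and the highest value, the treated tibia of LOAD 2, 14.21. The control tibia of the same array was at 12.71, and no other control exceeded 10.18. Slc2a2 lay between 10.13 and 12.11, Slc16a1 between 9.34 and 11.23, Slc4a3 between 9.29 and 10.51, Slc5a1 between 7.90 and 9.98, Slc19a1 between 8.23 and 9.73 and Slc1a2 between 7.81 and 9.17.

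The first comparison asked which carriers differed between the bent tibia and its contralateral control. In limma 0 of the 42 members, and 0 of the 4707 features tested (0% called), passed a false discovery rate of 20%. At an unadjusted p under 0.05 there were 0 members and 157 features (3.34%). Of the 27 members with signal 10 had a mean log2 ratio above 0 and 17 below, with a median of -0.05, beside -0.01 over all features. Over all features 47% were above 0. The limma adjusted p was 0.999804 for every member, and intervals given with a mean are limma's 95% intervals.

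Slc25a1 had the highest mean log2 ratio among the members with signal, 0.31 ± 0.69 (SD, n = 5; interval -0.11 to 0.73). Its ratios were -0.01, 1.50, 0.01, 0.29 and -0.25 in LOAD 1 to 5. The mean thus came mainly from LOAD 2, and without that array it was 0.01. The glucose transporter Slc2a3 had ratios of -0.07, 0.48, 0.10, 0.56 and 0.27, above 0 on 4 of 5 arrays, with a mean of 0.27 ± 0.26 (interval -0.26 to 0.79). Slc26a4 had -0.08, 0.60, 0.56, 0.01 and -0.06, with a mean of 0.20 ± 0.34 (interval -0.04 to 0.45), so that only LOAD 2 and LOAD 3 stood clearly above 0. The lactate carrier Slc16a1 had -0.04, 1.14, -0.09, 0.52 and -0.64, and its mean of 0.18 ± 0.68 became -0.06 without LOAD 2. The glutamate transporter Slc1a2 was the member with signal above 0 on all 5 LOAD arrays, between 0.00 and 0.27, with a mean of 0.10 ± 0.10 (interval -0.06 to 0.27). Over all features 3.82% had 1 sign on every LOAD array.

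The member with the lowest mean was Slc22a6, at -0.30 ± 0.54, with -1.21 in LOAD 3 and -0.11, 0.11, -0.38 and 0.09 in LOAD 1, 2, 4 and 5. Slc2a2 had -0.52, 0.38, -0.20, -0.86 and 0.18, with a mean of -0.20 ± 0.50 (interval -0.57 to 0.17). The amino acid carrier Slc7a5 had -0.04, -0.03, 0.06, -0.26 and -0.67, with a mean of -0.19 ± 0.30 (interval -0.48 to 0.10), which was -0.07 without LOAD 5. Its partner Slc3a2 had -0.01, 0.05, -0.27, 0.98 and -1.22, and the spread of these values exceeded its mean of -0.09 many times. Slc19a1 lay at -0.15 ± 0.40, Slc12a4 at -0.10 ± 0.25, Slc7a3 at -0.09 ± 0.29 and Slc23a1 at -0.07 ± 0.10. Without LOAD 4 the means were -0.02 for Slc19a1, -0.04 for Slc2a2 and -0.36 for Slc3a2. That of Slc3a2 was 0.19 without LOAD 5, that of Slc22a6 -0.07 without LOAD 3, and that of Slc7a3 0.04 without LOAD 2. The phosphate carrier Slc20a2 had a mean of 0.04 ± 0.16, with 0.31 in LOAD 4 and values between -0.12 and 0.07 on the other 4 arrays, which averaged -0.02.

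**Figure D2:**
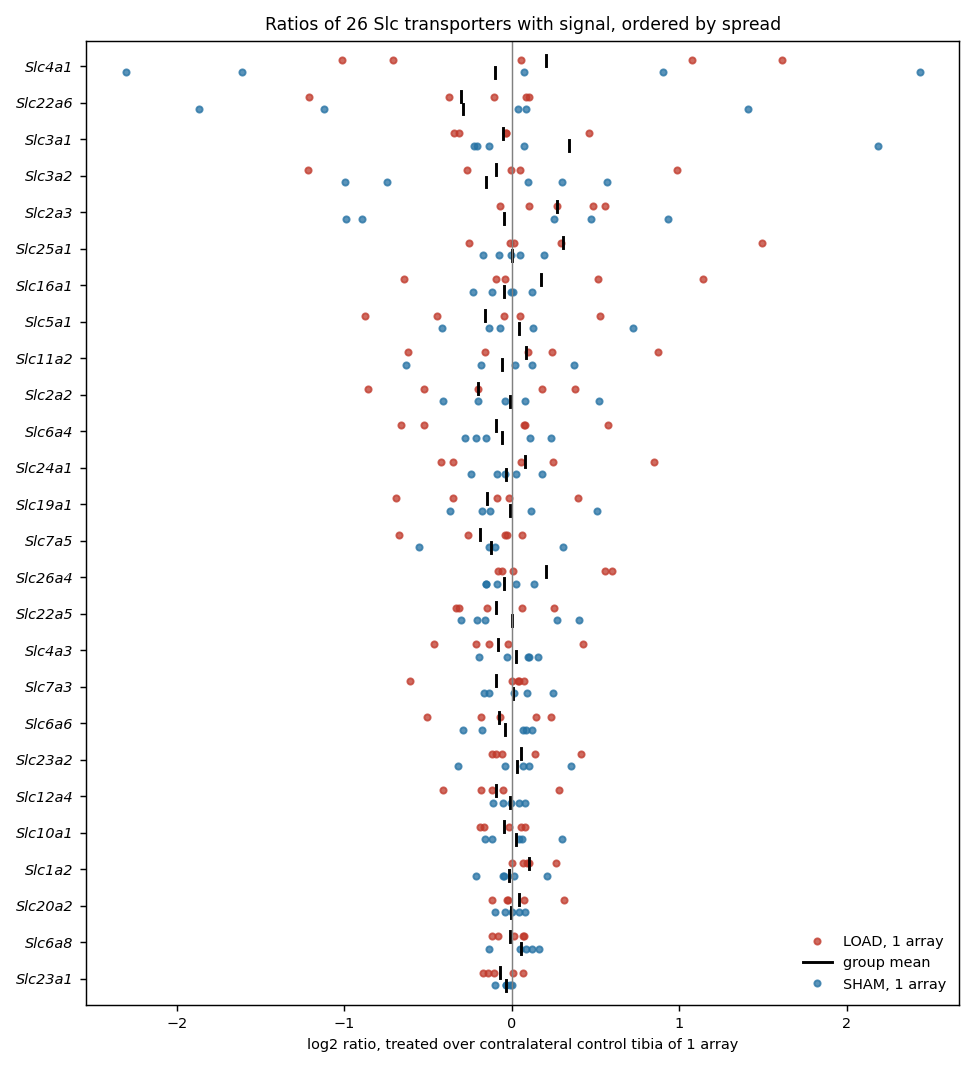
Each point is the log2 ratio of treated over contralateral control tibia on 1 array, for 26 of the 27 Slc transporters with signal in LOAD (red) and SHAM (blue), with group means as black ticks, ordered by the SD over all arrays. Ratios of Slc23a1 lie within a narrow band near 0, while those of Slc4a1 reach from -2.30 to 2.43, both extremes being SHAM arrays.

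The second comparison, squeezed against contralateral tibia, gave 0 members and 0 of 4707 features past the same limit (0% called in limma). At an unadjusted p under 0.05 limma called 32 features (0.68%) and 0 of the 27 members with signal. Of the members with signal 8 were above 0 and 19 below, with a median of -0.01, beside 0.00 over all features, of which 51.2% were above 0. The limma adjusted p was 0.999992 for every member.

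In SHAM the vitamin C transporter Slc23a1 was below 0 on all 5 arrays, by at most 0.10 on the log2 scale, with a mean of -0.04 ± 0.04 (interval -0.18 to 0.10). Over all features 3.14% had 1 sign on every SHAM array. Its ratios were -0.10, -0.04, -0.04, 0.00 and -0.01. Slc3a1 had the highest mean, 0.34 ± 1.04 (interval -0.29 to 0.97), which rested on 2.18 in SHAM 3, the other 4 arrays lying between -0.22 and 0.07. Slc22a6 had the lowest mean, -0.29 ± 1.26, with 0.09, -1.86, 0.04, -1.12 and 1.41 in SHAM 1 to 5. Slc3a2 had 0.30, -0.99, 0.10, -0.74 and 0.57, and Slc7a5, measured on 4 SHAM arrays, -0.14, -0.10, -0.55 and 0.30. SHAM 2 and SHAM 4 were thus the low arrays for Slc22a6 and Slc3a2, and SHAM 5 the high one. Slc6a8 had a mean of 0.06 ± 0.12, Slc5a1 of 0.04 ± 0.43, Slc23a2 of 0.03 ± 0.25, Slc10a1 of 0.03 ± 0.18, Slc26a4 of -0.05 ± 0.12 and Slc6a4 of -0.06 ± 0.22.

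The third comparison set the LOAD ratio against the SHAM ratio, for the effect of bending beyond squeezing. No member and no feature passed a false discovery rate of 20% (0% of 4707 called in limma), and at an unadjusted p under 0.05 there were 0 members and 70 features (1.49%). The LOAD and SHAM ratios overlapped in all 42 members, and they did not overlap in 0.276% of all features. The differences, LOAD minus SHAM, of the 27 members with signal had a median of -0.03, beside -0.01 over all features, and 11 were above 0, as were 47.8% of all features.

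Slc2a3 differed by 0.31 (95% interval -0.43 to 1.06), Slc25a1 by 0.31 (-0.29 to 0.90), Slc26a4 by 0.25 (-0.09 to 0.59), Slc16a1 by 0.22 (-0.36 to 0.81), Slc11a2 by 0.15 (-0.42 to 0.71) and Slc1a2 by 0.12 (-0.11 to 0.35). The arrays fell into 4 scan batches, grouped by a number in the file headers that was read as a date. Each batch held arrays of both groups, but batches 2 to 4 held only 1 array per group. Slc26a4 was the 1 member of 27 whose difference had the same sign in all 4, at 0.27, 0.53, 0.16 and 0.03. The share of all features with 1 sign is not given here, so this does not set Slc26a4 apart. Its difference was 0.01 with the dyes of LOAD 2 exchanged. On the other side Slc3a1 differed by -0.39 (-1.29 to 0.50), Slc5a1 by -0.20 (-0.78 to 0.37), Slc2a2 by -0.19 (-0.72 to 0.33), Slc4a3 by -0.11 (-0.45 to 0.23) and Slc12a4 by -0.09 (-0.36 to 0.19). Several of these differences hung on single arrays. That of Slc3a1 came from SHAM 3 and was 0.07 without it, those of Slc25a1 and Slc16a1 came from LOAD 2 and were 0.01 and -0.02 without it, and that of Slc12a4 was -0.01 without LOAD 5. With the dyes of LOAD 2 exchanged Slc25a1 and Slc16a1 differed by -0.29 and -0.23. Without both arrays numbered 4 the difference was 0.03 for Slc2a3, 0.10 for Slc2a2, 0.14 for Slc5a1, -0.08 for Slc11a2 and 0.02 for Slc4a3, so that the last 4 turned. The narrowest interval belonged to Slc23a1, -0.23 to 0.16, and the widest to Slc4a1, -1.50 to 2.11.

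By class, the differences of the members with signal went both ways in the exchangers (3 above 0 and 3 below), the amino acid carriers (2 and 3), the sugar carriers (1 and 2) and the vitamin carriers (1 and 2). All 3 members of the neurotransmitter class and all 3 of the organic ion class lay below 0, between -0.10 and -0.01. Other membrane transporters, that is ion pumps, ATP-binding cassette transporters, aquaporins and a partner of carriers, carried signal in 14 of 22 cases. Their median difference was 0.00, with 7 above 0 and 7 below, and 0 of 14 had an unadjusted limma p under 0.05 in LOAD, in SHAM or between them. Bsg, the chaperone that brings monocarboxylate transporters such as Slc16a1 to the membrane, had a log2 ratio of 0.00 ± 0.14 in LOAD and 0.10 ± 0.07 in SHAM.

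The contralateral controls of LOAD and SHAM were compared to see whether the untreated tibiae of the groups differed. Over the 4472 features with a value on every array limma's single channel fit placed 0 (0%) under the limit of 20% for false discoveries and 234 (5.23%) at an unadjusted p under 0.05. Among these were 3 of the 38 members tested, all with signal and each with an adjusted p of 0.843 in limma. The remaining 4 members, Slc7a5, Slc6a3, Slco1a1 and Slc10a2, lacked a value on 1 array and were not tested.

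The vitamin C transporter Slc23a2 was higher by 0.63 in the controls of LOAD (interval 0.14 to 1.11). Its log2 intensities were 7.60, 8.67, 7.25, 7.23 and 7.68 in the controls of LOAD 1 to 5 and 7.07, 6.97, 7.05, 7.34 and 6.86 in those of SHAM. The groups overlapped only through SHAM 4, and the difference was 0.39 without LOAD 2. The other vitamin C transporter, Slc23a1, was higher by 0.26 (interval 0.00 to 0.52), with 8.46, 8.64, 8.54, 8.56 and 8.68 against 8.40, 8.51, 7.98, 8.36 and 8.33. The metal transporter Slc11a2 was lower by 0.83 on the log2 scale (an estimate of -0.83, interval -1.62 to -0.04), with 8.39, 6.53, 8.75, 7.60 and 7.88 against 8.40, 8.62, 8.88, 8.46 and 8.95. Without LOAD 2, the lowest of these tibiae, its estimate was -0.52. When the controls of LOAD 4 and SHAM 4 were exchanged, as their tibia numbers would have it, the plain differences between the control means were 0.68 for Slc23a2, 0.18 for Slc23a1 and -0.49 for Slc11a2. The fitted estimates with this exchange were 0.56, 0.06 and 0.11, since on these 2 spots the fit then also weighs the control of one group against the treated tibia of the other, so that a direction for Slc11a2 did not hold in every way of computing it.

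Next by p were Slc4a3 (0.38), Slc24a1 (0.52), Slc25a1 (0.72) and Slc2a2 (0.37), higher in the controls of LOAD, and Slc20a2 (-0.25), Slc16a1 (-0.50), Slc6a4 (-0.32), Slc6a8 (-0.15) and Slc6a6 (-0.24), lower there. None of these had an unadjusted limma p under 0.05. The estimate of Slc25a1 was 0.18 without LOAD 2. For Slc20a2 the 5 controls of SHAM lay within 7.73 to 7.84, while those of LOAD were 7.99, 7.24, 7.48, 7.40 and 7.53, lower in all but LOAD 1.

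**Figure D3:**
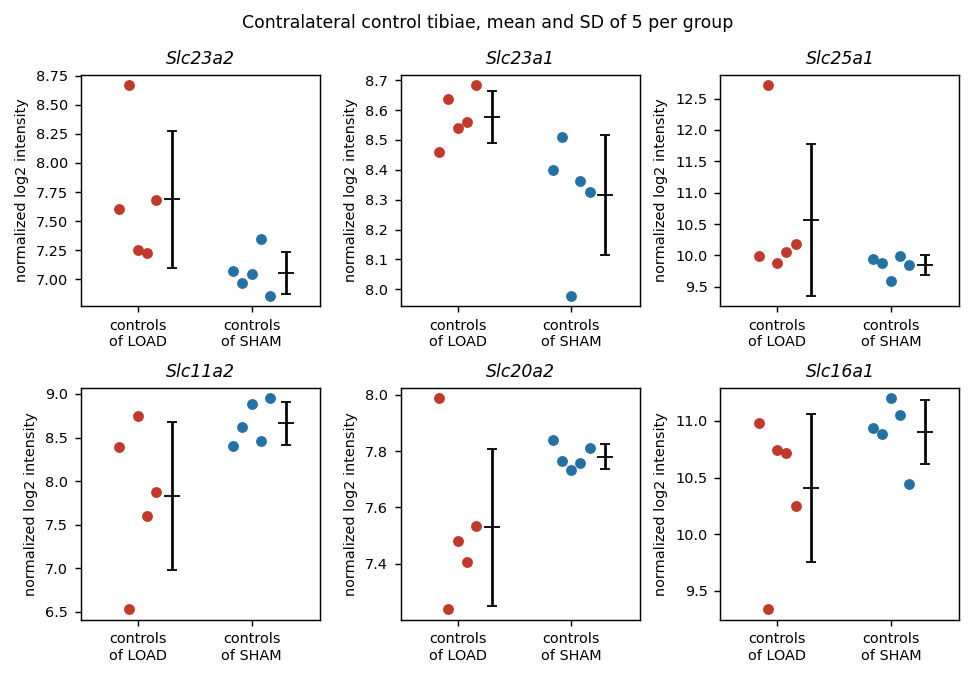
Normalized log2 intensity of 6 Slc transporters in the contralateral control tibiae of LOAD (red) and SHAM (blue), 1 point per tibia, with mean and SD (n = 5 each) beside the points. Each panel has its own axis. The controls of LOAD include 1 tibia far from the other 4 in Slc25a1, that of LOAD 2 at 12.71.

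The members differed widely in how far their ratios spread from array to array. The SD of the 10 ratios had a median of 0.30 over the 27 members with signal, beside 0.23 over all 3129 features with signal. It was lowest in Slc23a1 (0.08), Slc6a8 (0.10), Slc20a2 (0.12), Slc1a2 (0.14) and Slc10a1 (0.15), and 99% of the features with signal had a spread at least as large as that of Slc23a1. It was highest in Slc4a1 (1.49), Slc22a6 (0.91), Slc3a1 (0.75), Slc3a2 (0.69), Slc2a3 (0.62) and Slc25a1 (0.50). In Slc4a1 the ratios were 0.06, 1.07, -1.02, 1.61 and -0.71 in LOAD and 0.90, -2.30, 0.07, -1.61 and 2.43 in SHAM, and 0.128% of the features with signal spread as far. Both groups thus held arrays with more and arrays with less of this red cell transcript in the treated tibia. The values of 1.61 and -1.61 came from LOAD 4 and SHAM 4, whose tibiae are not borne out as from 1 rat.

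Across the 10 arrays several carriers moved with Slc4a1, as did many other features of the array. A slope on the ratio of Slc4a1, tested by limma over 4471 features, passed a false discovery rate of 20% in 10 of 25 members with signal, beside 31.4% of all features. Slc2a3 had the closest relation (Pearson's r = 0.90, permutation p = 0.00012, Spearman's rho = 0.94), and its ratios in SHAM, 0.48, -0.99, 0.25, -0.89 and 0.93, had the same order as those of Slc4a1. Slc3a2 followed (r = 0.86, permutation p = 0.00187, rho = 0.88), and then Slc22a6 (r = 0.85, permutation p = 0.00178, rho = 0.73), Slc11a2 (r = 0.77, permutation p = 0.00917, rho = 0.87) and Slc6a6 (r = 0.69, permutation p = 0.0288, rho = 0.65). Slc10a1 (r = -0.87, permutation p = 0.00132, rho = -0.77), Slc19a1, Slc6a4, Slc5a1 and Slc22a5 went the other way, with r between -0.66 and -0.58 for the last 4. Without SHAM 5 and SHAM 2, the arrays farthest from the median of Slc4a1, r was 0.80 for Slc2a3, 0.83 for Slc3a2, 0.84 for Slc11a2 and -0.79 for Slc10a1, while for Slc22a6 it was 0.62 (exact permutation p = 0.112), so that the relation of Slc22a6 rested on those arrays. It was 0.68 (exact permutation p = 0.0631) for Slc6a6 and -0.51 (exact permutation p = 0.198) for Slc22a5. LOAD 4 and SHAM 4, whose tibiae are not borne out as from 1 rat, stayed in all these values. Their ratios were 1.61 and -1.61 for Slc4a1, 0.56 and -0.89 for Slc2a3, and 0.98 and -0.74 for Slc3a2. For Slc22a6 they were -0.38 and -1.12. The r of single carriers without both arrays is not given here, and a count without them is given below.

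Other carriers, and many other features of the array, moved with Alas2, the enzyme that starts heme synthesis in red cell precursors. The slope on Alas2 passed in 12 of 26 members with signal, beside 35.5% of all features. Slc16a1 had r = 0.93 (permutation p = 0.00032, rho = 0.88) and Slc25a1 r = 0.85 (permutation p = 6e-05, rho = 0.84), neither of which passed with Slc4a1. Slc12a4, Slc11a2, Slc3a2, Slc6a6 and Slc4a1 itself were the other positive members, and Slc6a4 (r = -0.88, permutation p = 0.00136, rho = -0.75), Slc10a1, Slc4a3 and Slc7a3 were among the negative ones. Without LOAD 5 and LOAD 2, the arrays at the extremes of Alas2, r stayed at 0.73 for Slc16a1 and 0.83 for Slc25a1 but was -0.06 for Slc12a4, 0.05 for Slc7a3 and -0.14 for Slc4a3, whose relations rested on these arrays. For Slc6a4 it was -0.61 (exact permutation p = 0.107) and for Slc6a6 0.66 (exact permutation p = 0.0783), while Slc11a2 (0.74), Slc3a2 (0.74), Slc10a1 (-0.78) and Slc4a1 (0.74) kept an exact permutation p under 0.05. The ratio of Slc4a1 had a permutation p of 0.0872 with that of Alas2 (r = 0.56).

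The dye was not balanced over these relations, since Slc4a1 was lower in the red channel on 8 of 10 arrays. Within the 6 arrays with the treated tibia in Cy3, r with Slc4a1 was 0.90 for Slc2a3, 0.87 for Slc3a2, 0.81 for Slc22a6 and 0.59 for Slc11a2, and r with Alas2 was 0.91 for Slc25a1, 0.65 for Slc16a1 and -0.83 for Slc6a4. The exact permutation p within these 6 arrays was not under 0.05 for Slc22a6 (0.0569), Slc11a2 (0.215) and Slc16a1 (0.0958). With Slc4a1, r was -0.39 for Slc5a1 and -0.43 for Slc19a1. With Alas2, r was 0.06 for Slc12a4 and 0.01 for Slc7a3. For Slc22a5 r was 0.42 with Slc4a1, opposite in sign to that over all arrays. The 4 arrays with the treated tibia in Cy5, and the scan batches, hold too few arrays for a value. Of the 53 relations with these 2 transcripts 17 had a permutation p under 0.05 for Pearson's r, 8 with Slc4a1 and 9 with Alas2, and both transcripts were chosen after the spread of the ratios had been seen. The permutation count is not given here over all features. By the limma slope 31.4% of all features passed with Slc4a1 and 35.5% with Alas2, so moving with them was not particular to the carriers. What part blood cells in the bone samples have in the ratios of these carriers was not tested.

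**Figure D4:**
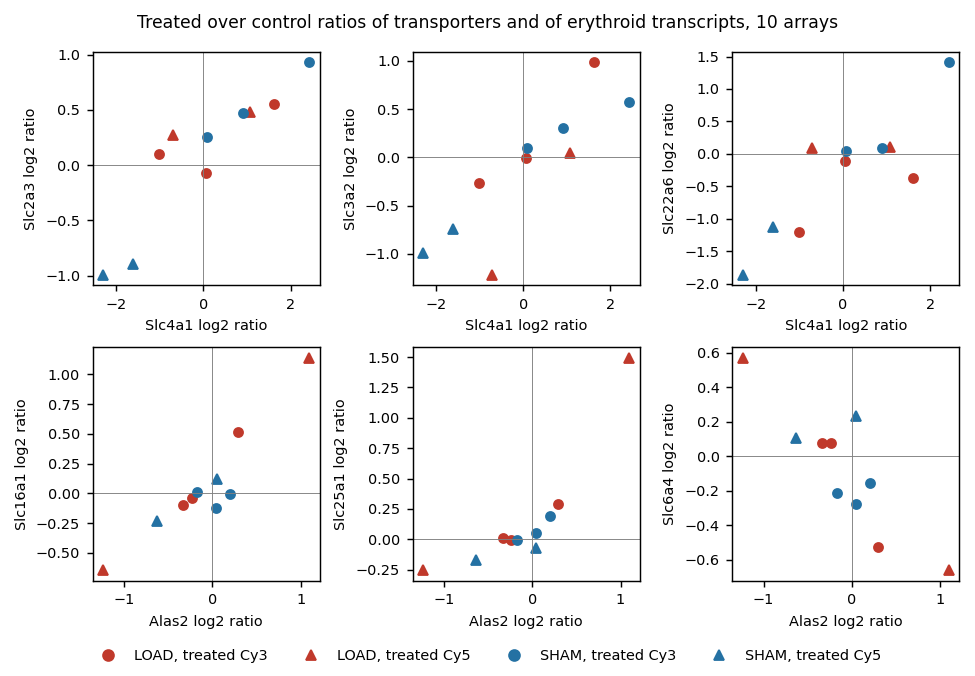
Log2 ratios (treated over control) of 3 Slc transporters against Slc4a1 (upper row) and of 3 against Alas2 (lower row), 1 point per array, LOAD in red and SHAM in blue, with circles for the treated tibia in Cy3 and triangles in Cy5. In the upper row points of both groups rise together, and in the lower row LOAD 2 and LOAD 5 lie at opposite ends.

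In each group the treated tibia carried Cy3 on 3 arrays and Cy5 on 2, so a preference of a gene for a dye does not cancel fully in a mean. In a limma fit of red over green with both groups in the model, 4 of 27 members with signal passed a false discovery rate of 20%, beside 1.83% of 4707 features. All 4 were higher in the red channel, namely Slc2a2 by 0.33, Slc5a1 by 0.34, Slc19a1 by 0.28 and Slc22a5 by 0.25 on the log2 scale. The ratios of Slc2a2 were between 0.08 and 0.52 on the 4 arrays with the treated tibia in Cy5 and between -0.86 and -0.04 on the 6 with Cy3, without overlap. Those of Slc22a5 were between 0.06 and 0.40 and between -0.33 and -0.15. At an unadjusted limma p under 0.05, which 8 members and 13.3% of all features reached, Slc24a1 was also higher in red, by 0.25, and Slc3a2, Slc11a2 and Slc6a6 were lower, with estimates of -0.50, -0.26 and -0.17. With a term for dye the LOAD mean of Slc2a2 was -0.14 in place of -0.20, that of Slc5a1 -0.09 in place of -0.16, that of Slc19a1 -0.10 in place of -0.15 and that of Slc22a5 -0.05 in place of -0.10. The number of members past the limit for dye depended on LOAD 2, being 13 without that array and 10 with its dyes exchanged. It was 7 without LOAD 3 and 0 or 1 without any other single array. The share of all features past the limit with these changes is not given here, so these counts show nothing particular to the carriers.

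**Figure D5:**
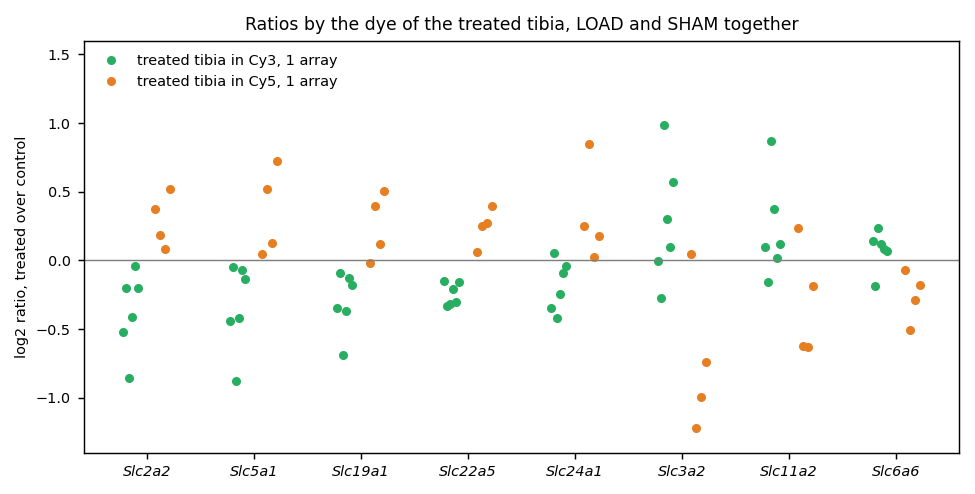
Log2 ratio of treated over control tibia on each of the 10 arrays, for 8 Slc transporters with an unadjusted limma p under 0.05 for dye, split by the dye of the treated tibia (green, Cy3, 6 arrays; orange, Cy5, 4 arrays). For Slc2a2, Slc5a1 and Slc22a5 the colours lie on opposite sides of 0, and for Slc3a2 the Cy5 points reach -1.22.

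Most muscle transcripts were lower in the treated tibia on several LOAD arrays. The mean log2 ratio over 7 of them was -0.89 in LOAD 3, -1.07 in LOAD 4 and -0.63 in LOAD 5. Of these 7, Scn4a was at 0.07 in LOAD 3 and 0.47 in LOAD 5, and Car3 at 0.21 in LOAD 3. Ckm, Eno3, Capn3, Tnni2 and Cacng1 were below 0 on each of these arrays. The tibiae of LOAD 4 are not borne out as from 1 rat. No member with signal passed a test of moving with this measure (0 of 27 at a permutation p under 0.05, and 0 of 26 past a false discovery rate of 20% in limma, beside 0.492% of features). The 5 highest values of r were those of Slc12a4 (r = 0.54, permutation p = 0.108), Slc10a1 (0.47), Slc2a2 (0.39), Slc22a5 (0.37) and Slc7a5 (0.33). The lowest were those of Slc1a2 (r = -0.58, permutation p = 0.0823), Slc20a2 (-0.41), Slc11a2 (-0.38), Slc2a3 (-0.36) and Slc3a2 (-0.24). When LOAD 4 and LOAD 3, whose muscle measure lay farthest from its median, were left out, Slc7a5 reached r = 0.84 over 7 arrays (exact permutation p = 0.00536). It was the only member of the 27 with a permutation p under 0.05 there. Over all 9 arrays with a value its permutation p was 0.389, exact as well, so the single relation among 27 carries little weight. Slc2a4, the glucose transporter of muscle and fat, was on in 9 channels and had log2 ratios of 0.04 ± 0.22 in LOAD and -0.01 ± 0.12 in SHAM.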

How the data were processed

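Arrays of 5 LOAD and 5 SHAM rats were analysed, grouped by the sample labels. The authors quantified the scanned images with BlueFuse (version 2.0 per the file headers, another version in the methods). The deposited files give an intensity per channel on a linear scale, without normalization, and, per the file headers, a spot confidence and, per channel, the signal probability, each a fraction. The deposited matrix of log2 ratios equals the ratios of these intensities within 0.0005 and served as an alternative. Duplicate spots do not appear separately in the deposited data, whereas the study's methods kept them apart in the fit.

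Values of spots with confidence below 0.11 were dropped, log2 ratios were normalized within arrays by loess (span 0.3, 4 iterations), and genes with over 1 missing value of 10 were left out. Means for LOAD, SHAM and their difference were fitted in limma 3.58.1 (R 4.3.3) over 4707 features, with Benjamini-Hochberg adjustment over all features and a false discovery rate of 20%. For the controls limma's single channel model was fitted after Aquantile normalization (4472 features, intraspot correlation 0.739). Relations across arrays used permutation tests, 2-sided (100000 draws, or all orders below 10 arrays). A planned adjustment over the members alone was replaced by adjustment over all features. The fits were tested on simulated data. The number of arrays limits the precision.

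Members and lists were chosen with earlier results of these data known. Named with values were the 10 members with signal of highest intensity, up to 6 per direction and comparison by p, members known from bone, those within 2 channels of the limit, and the 5 highest and 5 lowest r with muscle transcripts. Counts cover all 42 members, of which 2 are not reported singly here. Slc38a2 and other bone carriers without a row under the rule were not analysed here. Marker lists were muscle, bone, osteoclast, erythroid, leukocyte, cartilage (1 of 3 on the array with signal), endothelium (0 of 1), neuron, and kidney and liver. Oligonucleotide sequences were not used here. Symbols came from RefSeq (GRCr8).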

Additional observations from a re-analysis of the deposited data

Results flagged for a closer look

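Among the LOAD and the SHAM ratios of the 27 members with signal, 54 groups, each of 5 values except that of Slc7a5 in SHAM with 4, 2 held an array set apart from the other 4, and chance gives about 1 in 20. For Slc3a1 this was SHAM 3, with a log2 ratio of 2.18, while the other 4 SHAM arrays lay between -0.22 and 0.07 and averaged -0.12. For Slc7a3 it was LOAD 2, with -0.61, while the other 4 LOAD arrays lay between 0.00 and 0.07 and averaged 0.04.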

How the results depend on the processing

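No member passed a false discovery rate of 20% in LOAD, SHAM, LOAD against SHAM or the controls under any of the 25, 25, 25 and 19 alternatives run, and limma called at most 4, 2, 1 and 4 members at an unadjusted p under 0.05. Over all features, at most 9, 0, 2 and 17 passed. The 17 came from the controls with the replicate number as a block, where 0 members passed and 4 had an unadjusted p under 0.05. Same-numbered arrays of LOAD and SHAM correlated between -0.41 and 0.07 in their deviations, so the numbers were not taken to pair samples, and the block left 0 members called in every comparison and 0 following muscle (its smallest possible exact p is 0.0625). Of the 27 members with signal, 8 kept the sign of their LOAD mean under all alternatives, 3 that of the SHAM mean and 4 that of the difference. Without normalization the medians of all features were -0.23 in LOAD, -0.42 in SHAM and 0.19 for their difference.

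The number of members with signal was 15 at a probability of 0.9 or with 20 of 20 channels, and 26 to 28 with 1 array left out. Following was counted here by a permutation p under 0.05 for Pearson's r, not by the limma slope. Members following muscle numbered 0, but 1 by Spearman's rho, without both arrays numbered 4 or without the 2 arrays farthest from the median, 20 without normalization, and 0 to 1 with 1 array left out. Those following Slc4a1 numbered 8, but 4 without normalization, 5 without both arrays numbered 4 and 5 to 9 with 1 array left out (5 without LOAD 4). Those following Alas2 numbered 9, but 22 without normalization and 4 to 9 with 1 array left out (4 without LOAD 5). Those past the limit for dye numbered 4, but 10 with the dyes of LOAD 2 exchanged, 0 without both arrays numbered 4, 0 with median centring and 0 to 13 with 1 array left out. For the relations and for dye the shares of all features under these alternatives are not given here. The relations to Slc4a1 and Alas2, the test for dye and the exchange of the controls of LOAD 4 and SHAM 4 were chosen after seeing the data. The cause of these shifts was not tested. Members on in few channels lie near background, where a ratio says little.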
